A study of Homo sapiens with 3 samples.

Results

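The 10 genes described here encode receptor chains through which myeloid growth factors and interleukins act on blood cells: CSF1R, CSF2RB, CSF3R, IL10RA, IL21R, IL4R, IL7R, IL6R, IL2RG and IL6ST. They were taken by symbol, and all 10 of 10 were found among the 25247 named gene symbols of the deposited tables. The cells were OCI-AML2 R50, a line derived from the established acute myeloid leukaemia (AML) line OCI-AML2 and grown in MEMα medium containing 15% serum and 50 µM Ara-C (cytarabine, a nucleoside analogue used in AML chemotherapy), and every library came from this line. The 2 romidepsin libraries were from cells exposed for 18 h to romidepsin, a cyclic peptide that inhibits class I histone deacetylases, and the 1 control library was from cells labelled as control. The labels give no romidepsin dose and do not say whether the romidepsin libraries came from separate cultures, and the p-values therefore reflect no more than how far these libraries vary, a spread that may be technical.

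Haematopoietic cytokine receptors mostly lack an enzyme of their own and signal through Janus kinases (JAKs) held on their cytoplasmic tails, which phosphorylate STAT transcription factors. They are built from chains that are shared between ligands. IL2RG, the common gamma chain, completes the receptors for IL-4, IL-7 and IL-21; IL6ST (gp130) completes that for IL-6; and CSF2RB is the common beta chain for GM-CSF, IL-3 and IL-5. CSF1R differs from the others in being a receptor tyrosine kinase, and in myeloid cells CSF1R and CSF3R mark the monocytic and granulocytic lineages.

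After romidepsin, 7 of the 10 genes rose and 2 fell. The largest rises were those of IL21R, IL10RA, IL7R and IL4R, each at least 2-fold in both romidepsin libraries, while CSF3R and IL6R, which had the highest levels in the control, fell by less. IL2RG was not called. These calls are by limma on log2(FPKM + 1) with Benjamini-Hochberg adjustment over 11708 genes and a threshold of 0.05, where FPKM is a fragment count scaled to gene length and to library depth. Of all tested genes, 34.7% were called higher and 41.8% lower, or 76.5% in either direction. At least 2-fold higher in both romidepsin libraries were 4 of the 10 genes, against 7.43% of all tested genes, and none was 2-fold lower, against 3.08%. Because the 10 genes were chosen with earlier results of these data known, setting them beside such shares is description and no test. IL21R and IL7R were under 1 FPKM in the control and were tested only because of their level after romidepsin. Among the 8 receptors at 1 FPKM or more in the control, 5 rose, 2 fell and 2 were at least 2-fold higher, where 30.5%, 45.2% and 4.76% of such genes did so. The median difference of the 10 genes was 0.59 on the log2 scale, and that of all tested genes was -0.05. With libraries scaled to the same FPKM sum, which raised the median of all genes by 0.21, 8 of the receptors were called higher and 1 lower (48.7% and 26.2% of all genes). By median of ratios, 8 were called higher and 2 lower (40.1% and 35% of all genes), and after quantile normalization 6 higher and 1 lower (31.7% and 37.5%).

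The summed FPKM over all rows was 668773 and 657213 in the romidepsin libraries and 790922 in the control. Over named genes, whose sums were the ones made equal in the scaling above, it was 520552 and 517923 in the romidepsin libraries and 613768 in the control. The steps between low values correspond to about 21000000 and 22300000 fragments in romidepsin libraries and about 18800000 in the control. Transcripts that define myeloid leukaemia cells were detected in every library. The 12 markers of such cells, with FCGR1A read in a joint row with HIST2H2BF, summed to 4733 and 4689 FPKM in romidepsin libraries and 7908 FPKM in the control. Of the 11 with a row of their own, 4 were called higher and 7 lower (4 and 6 with equal library sums), with a median log2 difference of -0.70. MPO, the myeloperoxidase gene, was at 444 and 433 FPKM in romidepsin libraries and 751 FPKM in the control, and PTPRC (CD45) at 96.7 and 95.9 FPKM in romidepsin libraries and 71.3 FPKM in the control. Several of the receptors are also lymphoid genes, so lymphoid markers are set beside them. The 9 T and NK cell markers found summed to 57.2 and 58.9 FPKM after romidepsin and 99.1 FPKM in the control, nearly all of it NKG7 (56.0 and 57.7 FPKM after romidepsin, against 98.8 FPKM in the control), while CD3E and CD3G did not exceed 0.0640 FPKM in any library and KLRD1 was listed at 0. CD3D was at 0.899 and 0.681 FPKM after romidepsin and 0.216 FPKM in the control, under the 1 FPKM filter. The 7 B cell markers summed to 8.62 and 9.49 FPKM after romidepsin and 7.18 FPKM in the control, with MS4A1, CR2 and BLK listed at 0 throughout. The erythroid and megakaryocyte markers summed to 13.6 and 15.3 FPKM after romidepsin and 8.55 FPKM in the control, with 7 of 10 at 0 in every library, HBB among them. The epithelial and fibroblast markers summed to 3.82 and 3.90 FPKM after romidepsin and 0.0525 FPKM in the control, with EPCAM at 0. Most of this was COL1A1, at 2.30 and 2.54 FPKM after romidepsin and 0.0275 FPKM in the control, and DCN, at 1.49 and 1.24 FPKM after romidepsin and 0.0250 FPKM in the control. Both were tested only because of their level after romidepsin and were called higher. Fewer cells of a type and less RNA per cell cannot be told apart in bulk RNA, and the part of these markers in the receptor values was not tested.

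**Figure D1:**
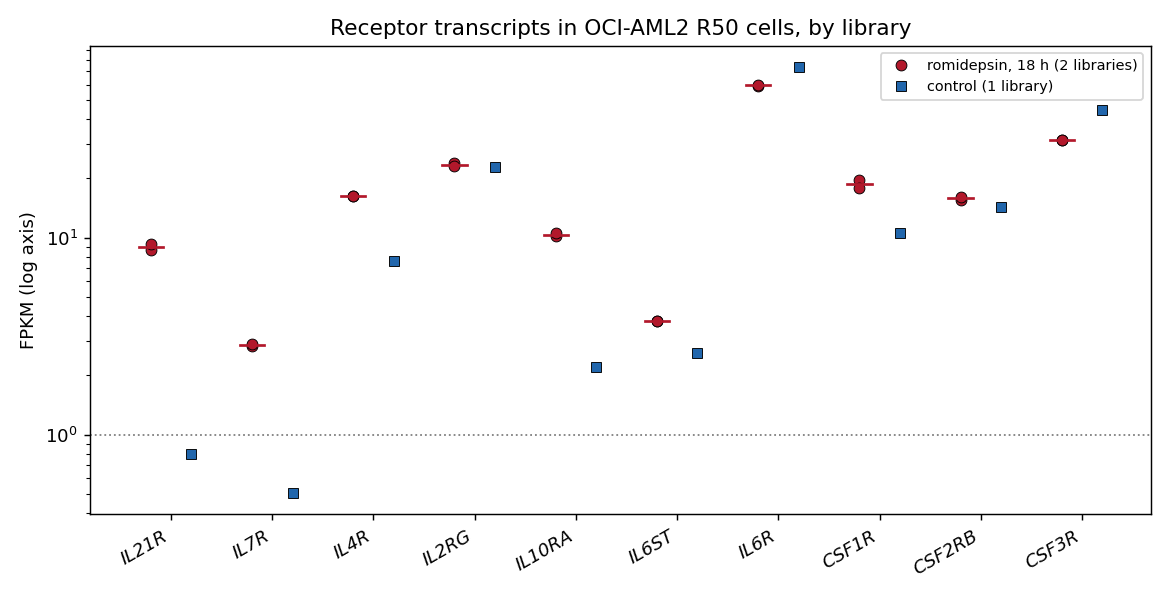
FPKM of the 10 receptor genes on a log axis, with the 2 romidepsin libraries as red circles (bar, their mean) and the control library as a blue square; the dotted line is 1 FPKM. The romidepsin circles lie close together for every gene and stand far above the control for IL21R, IL7R and IL10RA, while for IL6R and CSF3R they lie below it.

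IL21R, IL7R and IL4R, which pair with the common gamma chain, rose, while the gamma chain itself did not pass the test. IL21R, the receptor chain for IL-21, is known mainly from B, T and NK cells. Its level was 8.67 and 9.34 FPKM in the romidepsin libraries, against 0.793 FPKM in the control. Both romidepsin libraries were far above the control, which at this depth holds about 44 to 72 IL21R fragments depending on the transcript length assumed. The mean of 9.002 ± 0.473 FPKM (SD, n = 2) was 11.4 times the control level, and the difference on the log2(FPKM + 1) scale was 2.48 (SE 0.08, limma adjusted p = 4.61e-07), exceeded by 0.606% of tested genes. IL21R-AS1, an antisense transcript annotated at this locus, stayed at 0.0495 and 0.166 FPKM after romidepsin and 0.0814 FPKM in the control; whether the counting used strand is not given in the sources used here.

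IL7R, the alpha chain for IL-7 and a gene best known from lymphoid progenitors and T cells, had 2.81 and 2.90 FPKM after romidepsin and 0.505 FPKM in the control. This remained the lowest level of the 10 receptors in either condition, and the control value rests on about 9 to 44 fragments. The log2 difference was 1.36 (SE 0.11, limma adjusted p = 1.87e-05), or 5.66 times in FPKM. IL4R, the chain that binds IL-4 and also serves the IL-13 receptor, had 16.3 and 16.4 FPKM after romidepsin and 7.61 FPKM in the control. Its log2 difference of 1.01 (SE 0.05, limma adjusted p = 3.03e-06) lay just past the 2-fold line. IL2RG had 23.9 and 23.1 FPKM after romidepsin and 22.9 FPKM in the control, a log2 difference of 0.03 with a 95% interval from -0.08 to 0.14 (limma adjusted p = 0.548). IL2RG was called higher when libraries were scaled to the same sum (log2 0.26, adjusted p = 0.00241) or by median of ratios (log2 0.13, adjusted p = 0.0419).

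The proportions between the chains therefore differed by condition. For each unit of IL2RG FPKM there were 0.363 and 0.404 of IL21R after romidepsin, against 0.0346 in the control. The same ratio for IL4R was 0.682 and 0.708 after romidepsin and 0.332 in the control, and for IL7R 0.118 and 0.125 after romidepsin and 0.0220 in the control. Scaling a library by 1 factor leaves such ratios as they are. IL2RG remained the more abundant transcript in each of the pairs in every library.

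The promoter windows of IL21R, IL7R and IL4R are shown because these genes rose and pair with IL2RG, and because their base composition differs. Each runs from 250 bases before to 50 bases after a RefSeq transcript start of GRCh38.p14, in the direction of transcription, 5′ to 3′. The authors' build was hg19, so these coordinates are RefSeq's and not those of the deposited values. Capitals mark every match on either strand to GAGGAA (the core that the factor PU.1 binds), TTNNGNAA (a loose form of the C/EBP site), TTCNNNGAA (the STAT element) or GGGCGG (the GC box). The windows are IL21R (chr16:27427021-27427320, plus strand), IL7R (chr5:35856641-35856940, plus strand) and IL4R (chr16:27313724-27314023, plus strand).
IL21R: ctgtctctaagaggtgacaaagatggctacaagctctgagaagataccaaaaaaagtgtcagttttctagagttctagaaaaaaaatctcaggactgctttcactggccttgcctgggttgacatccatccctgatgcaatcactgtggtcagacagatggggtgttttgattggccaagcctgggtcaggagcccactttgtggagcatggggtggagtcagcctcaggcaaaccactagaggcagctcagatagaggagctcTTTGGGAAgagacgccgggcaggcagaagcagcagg
IL7R: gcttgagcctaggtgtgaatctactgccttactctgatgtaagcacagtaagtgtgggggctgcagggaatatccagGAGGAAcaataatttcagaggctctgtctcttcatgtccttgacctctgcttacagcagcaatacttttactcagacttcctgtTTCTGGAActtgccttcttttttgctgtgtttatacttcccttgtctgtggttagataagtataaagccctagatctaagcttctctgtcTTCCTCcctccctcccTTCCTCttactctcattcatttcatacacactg
IL4R: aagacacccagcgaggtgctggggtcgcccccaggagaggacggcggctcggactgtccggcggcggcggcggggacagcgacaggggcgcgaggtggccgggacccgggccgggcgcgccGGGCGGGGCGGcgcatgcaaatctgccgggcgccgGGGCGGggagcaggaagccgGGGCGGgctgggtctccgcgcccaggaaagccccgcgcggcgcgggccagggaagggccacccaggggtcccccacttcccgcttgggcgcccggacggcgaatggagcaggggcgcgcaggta
The IL4R window was 79.3% G and C with 42 CpG dinucleotides and 4 GC boxes, the leading pair of which overlap. The IL21R and IL7R windows were 51% and 44.3% G and C with 2 and 0 CpG and no GC box, where the median of all 35116 RefSeq windows was 58.7% with 14 CpG. GAGGAA had 3 matches in the IL7R window and none in those of IL21R and IL4R.

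IL4R and IL21R are next to each other on chromosome 16 in the RefSeq gene order, and they are the only adjacent pair among the 10 genes. Their outer protein-coding neighbours, looked up after the values were seen, rose as well but by less. NSMCE1, beside IL4R, had 62.3 and 61.3 FPKM after romidepsin and 50.9 FPKM in the control (log2 0.27, limma adjusted p = 0.000389), and GTF3C1, beside IL21R, had 18.2 and 18.3 FPKM after romidepsin and 15.1 FPKM in the control (log2 0.26, limma adjusted p = 0.00191). The rises at this locus thus spanned log2 0.26 to 2.48, with IL21R the highest.

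IL10RA, the ligand-binding chain for the anti-inflammatory cytokine IL-10, belongs to the interferon receptor branch of the cytokine receptors. Its level was 10.2 and 10.5 FPKM in the romidepsin libraries and 2.20 FPKM in the control. The romidepsin libraries differed from each other by 0.05 on the log2 scale, against a difference of 1.83 from the control (SE 0.07, limma adjusted p = 7.32e-07), and 1.87% of tested genes had a larger one. Its signalling partner IL10RB is read only in a joint row with IFNAR2, which was at 84.0 and 86.5 FPKM after romidepsin and 77.4 FPKM in the control, so no value belongs to IL10RB alone. IL10, the ligand gene, was at 0.152 and 0.0613 FPKM after romidepsin and listed at 0 in the control. The IL10RA window (chr11:117989695-117989994, plus strand), shown for its rise, held a GAGGAA match at -20, counted from the start, and a TTNNGNAA match at -197.
IL10RA: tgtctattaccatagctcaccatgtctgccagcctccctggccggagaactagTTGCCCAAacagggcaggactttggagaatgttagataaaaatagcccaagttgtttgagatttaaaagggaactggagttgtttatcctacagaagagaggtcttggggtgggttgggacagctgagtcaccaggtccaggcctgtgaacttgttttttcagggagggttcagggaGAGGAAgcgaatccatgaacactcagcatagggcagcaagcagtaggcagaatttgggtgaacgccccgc

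The chains of the IL-6 receptor went in opposite directions. IL6R, which binds IL-6, had the highest level of all 10 receptors in every library, with 59.1 and 59.98 FPKM after romidepsin and 73.4 FPKM in the control. It fell by 18.9% in FPKM, a log2 difference of -0.30 (SE 0.04, limma adjusted p = 0.000226). This call was lost with scaling to the same sum (log2 -0.06, adjusted p = 0.182) and with quantile normalization (log2 -0.08, adjusted p = 0.0968). IL6ST, the signalling chain shared with LIF, IL-11 and oncostatin M, had 3.76 and 3.80 FPKM after romidepsin and 2.58 FPKM in the control. It rose by a log2 difference of 0.41 (SE 0.08, limma adjusted p = 0.00299), a call lost with quantile normalization (log2 0.18, adjusted p = 0.0976). The ratio of IL6R to IL6ST was 15.7 and 15.8 after romidepsin and 28.4 in the control. ATP8B2, a gene beside IL6R, had 13.6 and 13.1 FPKM after romidepsin and 3.23 FPKM in the control. Neighbours of the other receptors went both ways. NCF4, beside CSF2RB, rose by 0.44 on the log2 scale, and PDGFRB, beside CSF1R, by 1.59. Lower were MRPS15 beside CSF3R (log2 -0.57), ANKRD55 beside IL6ST (-0.53), MED12 beside IL2RG (-0.50) and HMGXB3 beside CSF1R (-0.13). The HMGXB3 call was at the edge of the threshold (limma adjusted p = 0.0468). Its difference was smaller in size than the 0.21 by which scaling to the same sum raised the median of all genes.

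Among the growth factor receptors, CSF1R rose, CSF3R fell and CSF2RB was at the edge of the threshold. CSF1R, the receptor for M-CSF and IL-34 that drives macrophage development, had 19.6 and 17.9 FPKM after romidepsin and 10.6 FPKM in the control. The pair was wider apart here than for any other of the receptors (0.12 on the log2 scale), and the log2 difference was 0.77 (SE 0.06, limma adjusted p = 2.48e-05). CSF3R, the G-CSF receptor of the granulocyte lineage, had 31.2 and 31.3 FPKM after romidepsin and 44.3 FPKM in the control. It fell by 29.3% in FPKM, a log2 difference of -0.49 (SE 0.04, limma adjusted p = 2.77e-05). The ratio of CSF1R to CSF3R was 0.627 and 0.573 after romidepsin and 0.238 in the control, so CSF3R stayed the more abundant transcript in every library.

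CSF2RB had 15.6 and 16.1 FPKM after romidepsin and 14.3 FPKM in the control. The log2 difference of 0.14 (95% interval 0.01 to 0.26, limma adjusted p = 0.0450) was small, and 36.9% of tested genes had a larger one. This call was lost with no filter (limma adjusted p = 0.101) and without a mean-variance trend (limma adjusted p = 0.0778). The alpha chains with which CSF2RB forms receptors could not be read beside it. CSF2RA and IL3RA were listed at 0 in all 3 libraries, as were 21 of the 22 symbols of the pseudoautosomal regions found in the tables, so an exact 0 is no evidence of absence for them. IL5RA, which lies elsewhere, reached 0.00729 FPKM in a single romidepsin library and was otherwise listed at 0.

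The windows at CSF1R and CSF3R are shown because these genes differed in direction and both are known targets of PU.1 and C/EBP factors in myeloid cells. RefSeq gives a pair of starts for each. The downstream start of CSF1R, the one known from macrophages, is at chr5:150086505-150086804, minus strand, and the downstream start of CSF3R is at chr1:36482864-36483163, minus strand.
CSF1R: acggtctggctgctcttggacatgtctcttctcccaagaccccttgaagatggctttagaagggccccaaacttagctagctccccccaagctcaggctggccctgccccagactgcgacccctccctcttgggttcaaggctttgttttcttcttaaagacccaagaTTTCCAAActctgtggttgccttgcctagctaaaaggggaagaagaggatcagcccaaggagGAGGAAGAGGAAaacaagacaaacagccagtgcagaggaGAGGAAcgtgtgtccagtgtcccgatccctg
CSF3R: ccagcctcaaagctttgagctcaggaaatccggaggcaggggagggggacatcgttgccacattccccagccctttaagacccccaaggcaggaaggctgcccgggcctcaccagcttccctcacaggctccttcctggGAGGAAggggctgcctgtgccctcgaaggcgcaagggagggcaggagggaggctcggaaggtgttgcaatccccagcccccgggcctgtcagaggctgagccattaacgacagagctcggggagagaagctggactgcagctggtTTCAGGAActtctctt
The CSF1R window held 3 GAGGAA matches, at -20, -14 and 20 counted from the start, and the CSF3R window held 1, at -111. Each also held 1 match to TTNNGNAA. The upstream CSF1R window had neither of these motifs and 1 GC box, and the upstream CSF3R window had 3 TTNNGNAA matches. Over the 11 windows of the 9 matched genes, 6 held GAGGAA, against 27.9% of all RefSeq windows. TTNNGNAA was in 7 (36.8% of all windows), GGGCGG in 3 (45% of all windows) and TTCNNNGAA in none (7.66% of all windows). In the IL6R window a match to GAGGAA on the minus strand overlaps 1 to TTNNGNAA. Matches were found in windows of genes that rose and of genes that fell, and they describe letters only.

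**Figure D2:**
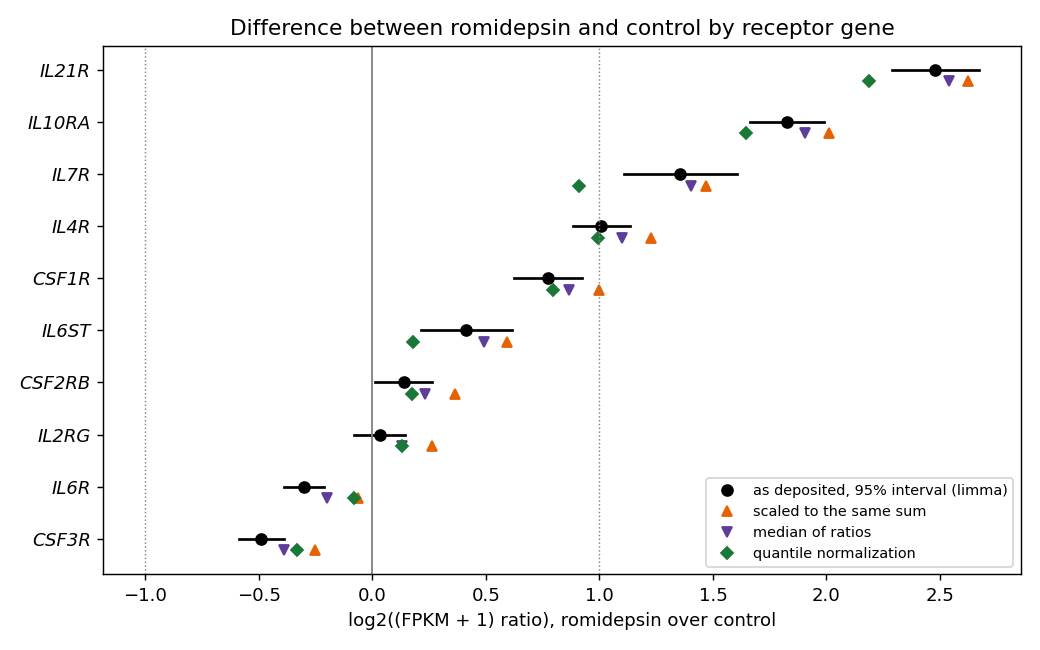
Difference between romidepsin and control for each receptor gene, as the log2 ratio of FPKM + 1; black circles with bars are the values as deposited with limma 95% intervals, and coloured symbols are the values under other scalings of the libraries. Dotted lines mark 2-fold. IL21R and IL10RA lie beyond the 2-fold line under each of these scalings, IL7R and IL4R fall just short of it with quantile normalization, and CSF3R and IL6R stay below 0.

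By level, the order after romidepsin was IL6R, CSF3R, IL2RG, CSF1R, IL4R, CSF2RB, IL10RA, IL21R, IL6ST and IL7R. In the control it was IL6R, CSF3R, IL2RG, CSF2RB, CSF1R, IL4R, IL6ST, IL10RA, IL21R and IL7R. FPKM is scaled to gene length, so these levels can be set beside each other. The closest neighbours after romidepsin were IL4R, whose lower library was at 16.3 FPKM, and CSF2RB, whose higher library was at 16.1 FPKM, a gap smaller than the SD of CSF2RB (0.392 FPKM). The highest and lowest receptor were 20.9-fold apart after romidepsin and 146-fold apart in the control. IL6R and CSF3R together made up 47.3% and 47.7% of the summed FPKM of the 10 receptors after romidepsin and 65.7% in the control, while the sums themselves were 191 and 191 FPKM after romidepsin and 179 FPKM in the control.

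**Figure D3:**
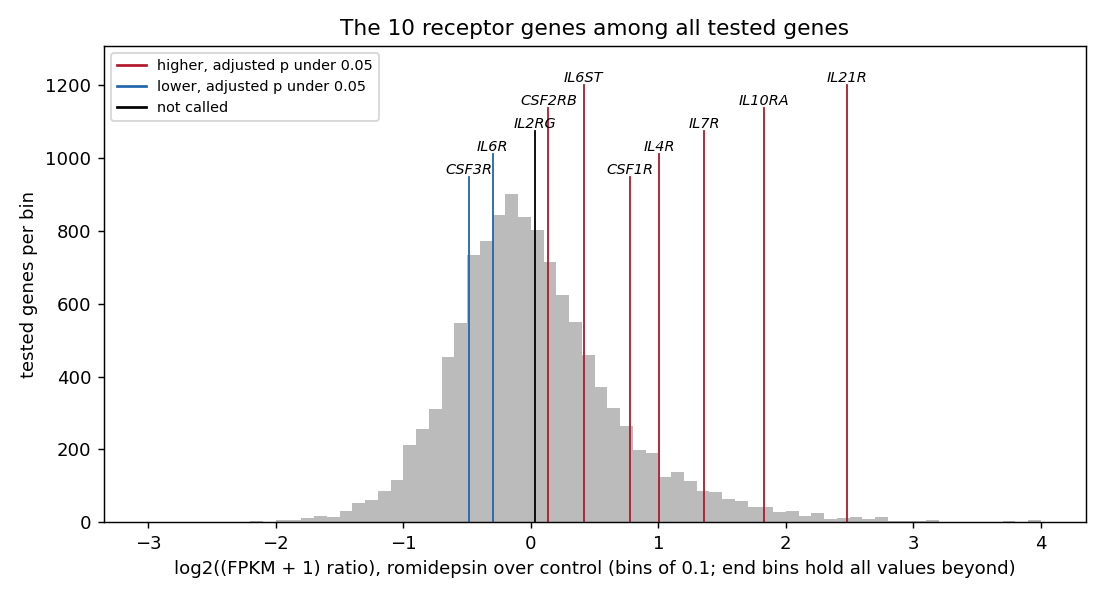
Number of tested genes per bin of 0.1 in the log2 ratio of FPKM + 1, romidepsin over control (grey), with a line for each receptor gene. IL21R, IL10RA, IL7R and IL4R lie in the upper tail, exceeded by 0.606%, 1.87%, 4.39% and 7.92% of tested genes, and CSF3R and IL6R lie on the lower side, above 19.3% and 31.7% of them.

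Ligands of these receptors were hardly detected. Of 24 ligand genes, 23 had a row of their own, none of them reached 1 FPKM in any library and 11 were listed at 0 throughout; CNTF is read only in a joint row with ZFP91. The ligand values nearest to 1 FPKM, named after they were seen, were those of CTF1 (0.736 and 0.607 FPKM after romidepsin and 0.497 FPKM in the control) and TSLP, which acts through IL7R and CRLF2 (0.732 and 0.648 FPKM after romidepsin, against 0.0913 FPKM in the control). CSF1, the M-CSF gene, was at 0.0132 and 0 FPKM after romidepsin and 0.0156 FPKM in the control.

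Other receptor chains, most but not all of which combine with these receptors, were also few. Of 19 such genes, 16 had their own row, 4 could be tested, 1 rose and 2 fell (0 and 3 with quantile normalization). IL27RA, which joins IL6ST in the IL-27 receptor, fell to 6.01 and 6.25 FPKM in romidepsin libraries, against 9.88 FPKM in the control (log2 -0.61, limma adjusted p = 0.000103). IL13RA1, which joins IL4R in the type II IL-4 receptor, was at 6.49 and 6.28 FPKM after romidepsin and 7.56 FPKM in the control (log2 -0.21, adjusted p = 0.0214 by limma, lost when library sums were equalised and with median of ratios), and the ratio of IL4R to IL13RA1 was 2.51 and 2.61 after romidepsin and 1.01 in the control. IL11RA rose by 0.56 on the log2 scale to 2.39 and 2.94 FPKM, against 1.48 FPKM in the control (limma adjusted p = 0.00400, lost with quantile normalization). IL15RA, the IL-15 chain that pairs with the gamma chain, was not called, at 1.32 and 1.001 FPKM after romidepsin and 1.54 FPKM in the control (log2 -0.24, limma adjusted p = 0.146), though it was called lower with quantile normalization (log2 -0.64, adjusted p = 0.0303); it was named after its values were seen. IL2RB, named here after its values were seen, shares IL2RG in the IL-2 and IL-15 receptors; it was not tested, at 0.906 and 0.915 FPKM after romidepsin and listed at 0 in the control. Besides CSF2RA and IL3RA, the chains of this list at 0 throughout were IL9R, CRLF2, LIFR, CNTFR and IL20RA. IL9R and CRLF2 are also pseudoautosomal.

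Of 24 genes for other cytokine and growth factor receptors, 14 had their own row and passed the filter. Of these, 10 rose and 3 fell (11 and 2 with scaling to the same sum), where 34.7% and 41.8% of all tested genes did so. Their median log2 difference was 0.67, against 0.59 for the 10 receptors, so the rise was not particular to those. The filter was passed by 3 only through the romidepsin libraries. PDGFRB, the kinase gene next to CSF1R on chromosome 5, had 3.82 and 3.54 FPKM after romidepsin and 0.555 FPKM in the control. TGFBR1 had 46.0 and 47.6 FPKM after romidepsin and 18.4 FPKM in the control. KIT, the stem cell factor receptor, had 1.40 and 1.85 FPKM after romidepsin and 0.182 FPKM in the control. These receptors were at least 2-fold higher in both romidepsin libraries, but PDGFRB and KIT were tested only because of their level after romidepsin. IL12RB2 fell to 1.36 and 1.67 FPKM after romidepsin, against 4.55 FPKM in the control (log2 -1.14, limma adjusted p = 6.50e-05). FLT3, a receptor kinase often mutated in AML, had 47.6 and 46.7 FPKM after romidepsin and 44.8 FPKM in the control and was not called (log2 0.07, limma adjusted p = 0.144); it was named after its values were seen. FLT3 was called higher under each of the other scalings (log2 0.17 to 0.31).

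Of the 11 JAK and STAT genes, 10 were tested, 5 rose and 3 fell, with a median log2 difference of 0.18 (7 and 1 with scaling to the same sum). JAK1, which serves the IL-6, IL-10 and gamma chain receptors, had 28.4 and 28.3 FPKM after romidepsin and 18.1 FPKM in the control (log2 0.62, limma adjusted p = 1.29e-05). STAT3, the main effector of IL-6, IL-10 and IL-21 receptors, had 28.9 and 29.8 FPKM after romidepsin and 19.5 FPKM in the control (log2 0.56, limma adjusted p = 2.50e-05), and STAT2, which acts with interferon receptors, rose by 0.89. STAT5A, an effector of GM-CSF and IL-3 receptors, fell to 8.11 and 7.95 FPKM after romidepsin, against 13.2 FPKM in the control (log2 -0.65, limma adjusted p = 4.03e-05). STAT6, the effector of IL4R and likewise named after its values were seen, was at 34.1 and 33.6 FPKM after romidepsin and 39.9 FPKM in the control (log2 -0.23, limma adjusted p = 0.00157), a difference that changed sign with scaling to the same sum.

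Feedback regulators and target genes of these receptors went both ways. Of 31 genes, 27 were tested in their own row, 14 rose and 9 fell (17 and 7 with scaling to the same sum), with a median log2 difference of 0.16, and 1 passed only through the romidepsin libraries. PIM1, a survival kinase gene induced by STATs, had 22.5 and 22.6 FPKM after romidepsin and 2.83 FPKM in the control (log2 2.62, limma adjusted p = 1.07e-07). The transcriptional repressor gene BCL6 rose by 1.46 and PTPN1, a phosphatase that acts on JAKs, by 1.02. SOCS1, a JAK inhibitor, had 7.72 and 4.91 FPKM after romidepsin and 1.46 FPKM in the control (log2 1.55, limma adjusted p = 0.000262), with the romidepsin libraries well apart. SOCS2 fell to 10.1 and 9.73 FPKM after romidepsin, against 26.0 FPKM in the control (log2 -1.31, limma adjusted p = 1.10e-06), and MYC to 119 and 116 FPKM, against 362 FPKM in the control (log2 -1.61, limma adjusted p = 1.24e-07).

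Transcription factors that act on myeloid receptor genes were likewise split, with 6 of 11 tested genes higher and 4 lower (median log2 difference 0.24). EGR2, tested only because of its level after romidepsin, had 2.23 and 1.51 FPKM after romidepsin and 0.0811 FPKM in the control. CEBPB rose by 1.06 on the log2 scale, MITF by 1.08 and EGR1 by 1.38. CEBPD fell by 1.95, to 52.3 and 52.9 FPKM after romidepsin against 206 FPKM in the control. SPI1 encodes PU.1, the factor for which the GAGGAA matches were searched, and was named, like CEBPA, after its values were seen. It had 106 and 100.2 FPKM after romidepsin and 208 FPKM in the control (log2 -1.01, limma adjusted p = 1.09e-06), while CEBPA had 265 and 262 FPKM after romidepsin and 223 FPKM in the control.

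**Figure D4:**
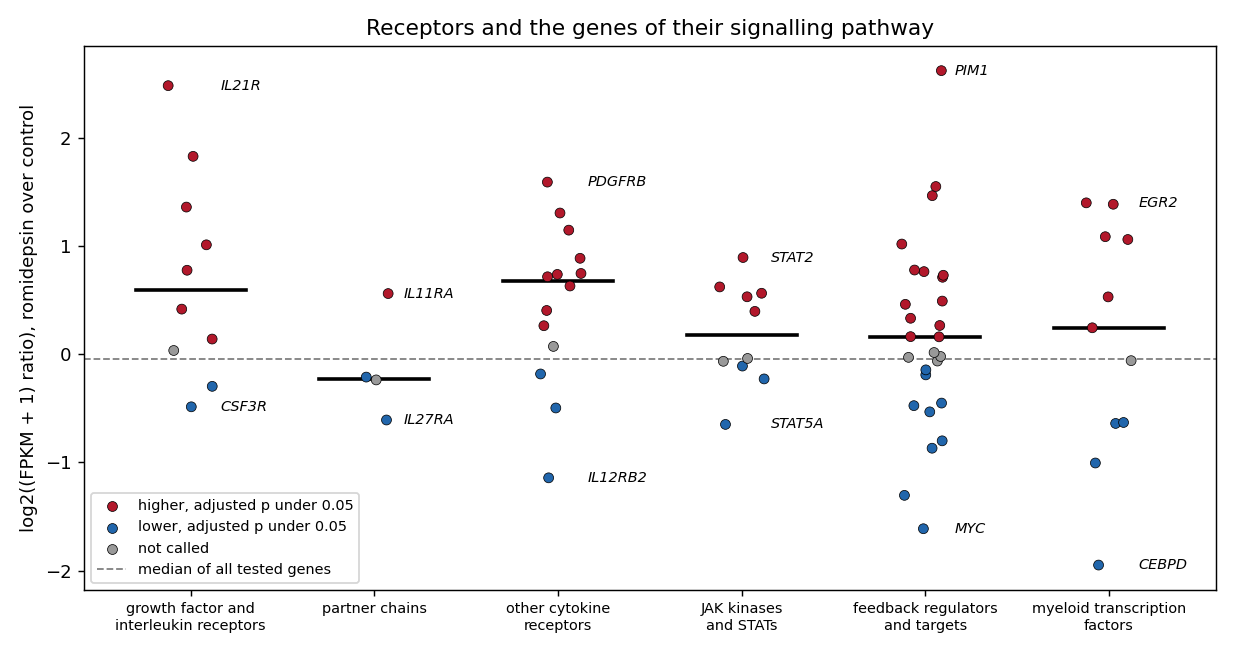
Log2 ratio of FPKM + 1, romidepsin over control, for each tested gene with its own row in the receptor set and 5 lists of related genes; red is called higher, blue called lower, grey not called, the thick bar is the list's median and the dashed line the median of all tested genes. The receptor set reaches from CSF3R at -0.49 to IL21R at 2.48, and the widest lists are the feedback regulators and targets (MYC to PIM1) and the myeloid transcription factors (CEBPD to EGR2).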

How the data were processed

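RNA sequencing libraries of OCI-AML2 R50 cells were compared, 2 romidepsin and 1 control. The authors deposited FPKM values per gene name, per the file headers. The submitters' processing notes list TopHat, Cufflinks, Cuffdiff and the hg19 build, without roles. Versions, settings, annotation and the scaling between libraries are not given there. Rows with no gene name (1770 of 28837, holding 21.1% to 22.3% of the FPKM sum) and 27 rows named by a number were left out, and rows of 1 symbol were summed; each receptor had a single row.

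Genes reaching 1 FPKM in at least 1 library (11708) were compared on log2(FPKM + 1), a scale that understates changes of low genes, with limma 3.58.1 in R 4.3.3 (lmFit, eBayes with a mean-variance trend). Only the romidepsin pair gives a spread, so 1 residual degree of freedom was joined to a prior of 6.06. The control library is taken to vary as that pair does, and a difference between cultures cannot be told apart from that of romidepsin. The fit was tested on simulated data. A second rule, with no test, was a difference of at least 2-fold in both romidepsin libraries. Genes in joint rows were not counted in lists. Depth was taken from the FPKM step of 1 fragment in genes with a single GENCODE transcript of at least 2000 bases, and is approximate; counting error only is covered by such numbers. Promoter windows are from RefSeq (GRCh38.p14); 9 of the 10 receptors matched, and CSF2RB is named only.

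The receptors, lists and tests were chosen with earlier results of these data known. Named genes were all receptors and, per list, those at least 2-fold different in both libraries, then the largest called differences up to 4. Alternatives were a pseudocount of 0.1, other filters, 3 other scalings, no trend, single-row symbols only and leaving out each romidepsin library. Tables were handled with Python 3.11.15, pandas 2.3.3 and numpy 2.4.6, and plots drawn with matplotlib 3.10.9.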

Additional observations from a re-analysis of the deposited data

How the results depend on the processing

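All 10 receptors kept the sign of their difference under every alternative with a test, and 81 of 88 such values stayed on the same side of the threshold. The number called lower was 1, in place of 2, when library sums were equalised and 1 after quantile normalization, since the call of IL6R was lost there. The number at least 2-fold higher was 2 with quantile normalization, in place of 4, where IL7R and IL4R were at 0.91 and 0.99 on the log2 scale. The number called higher lay between 5 and 8, the 5 with a mean filter of 5 FPKM. A pseudocount of 0.1 gave log2 differences of 3.35 for IL21R and 2.29 for IL7R, since both are low in the control. Under that filter IL7R and IL6ST were not tested and gave no value. Without either romidepsin replicate no residual degrees of freedom remain, and each value is then that of the other romidepsin library, which is no check of stability. No paired analysis was possible because the single control shares at most 1 replicate number with the romidepsin libraries. Depth limits the control values of IL21R and IL7R most, and the lone control leaves culture-to-culture spread unmeasured.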
